A study of Mus musculus with 54 samples.

Results

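The comparison described here is the response of M1-like macrophages to mock transfection. It rests on 6 of the 54 libraries of the series, namely 3 libraries of M1-like macrophages treated with transfection reagent alone (M1_mock) and 3 libraries of M1-like macrophages that were not transfected (M1), all chosen by their sample titles. Peritoneal exudate cells had been washed from the peritoneum of C57BL/6 mice, 8 to 20 weeks old, 4 days after thioglycolate injection, and both groups had received LPS at 100 ng/ml together with IFNγ at 50 ng/ml for 24 h. The mock cells then received the reagent DharmaFECT 4 without siRNA and were harvested 48 h later. For RNA sequencing the study's methods give 24 h after polarization for macrophages without transfection and 48 h after transfection for the reprogramming experiment, without saying which time holds for the untransfected libraries used here, so that the reagent, the extra handling and any difference in time cannot be told apart. As companions, M0 macrophages (no stimulus) and M2-like macrophages (10 ng/ml IL-4) were available with and without mock transfection, each in 3 libraries. In the reprogramming experiments, M2-like cells were kept without IL-4 after transfection, according to the methods. Whether LPS and IFNγ were kept for the M1-like cells is not stated. Removal of the stimulus therefore cannot be told apart from the mock treatment either. The libraries of M1 and M1_mock held between 13421854 and 18092315 paired-end reads counted on genes, and levels are given below as CPM (reads of a gene scaled to a common library size) after TMM scaling.

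LPS is sensed by Toll-like receptor 4, which signals to NF-kB and to interferon regulatory factors, while IFNγ has its own receptor and JAK kinases. Macrophages treated with both produce nitric oxide with the enzyme encoded by Nos2 and transcribe the guanylate-binding proteins, chemokines and antigen presentation genes. Type I interferon, the usual response to viral nucleic acids in the cytosol, acts on a short promoter element, the interferon-stimulated response element, and raises antiviral effectors such as the Ifit, Oas and Mx genes. Transfection reagents are cationic lipids that carry nucleic acids across the membrane, and mock controls are used to separate their own action from that of the siRNA.

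The 6 libraries matched their label. Nos2 (chr11:78920787-78960254, GRCm38) was at 824, 654 and 639.9 CPM in the untransfected and at 524, 560.1 and 421 CPM in the mock M1-like libraries, against means of 0.0922 CPM in M0 and 0 CPM in M2-like macrophages. Of 727 genes that were induced by LPS plus IFNγ in the separate polarization experiment of the series (log2 fold change of at least 2 against M0) and were tested here, 610 were higher and 16 lower in untransfected M1-like than in M0 macrophages (of all 14172 genes, 28.8% were higher). Of 439 repressed genes, 385 were lower (28.6% of all genes) and 8 higher. Several cytokines were present at few reads in both groups. Il6 lay between 0.402 and 1.28 CPM in the untransfected and between 0.435 and 0.696 CPM in the mock libraries, and Il12b lay between 0.196 and 0.987 CPM in all 6.

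No gene passed the test between mock and untransfected M1-like macrophages. With edgeR's quasi-likelihood test in 1 model of 36 libraries, 0 of 14172 genes (0%) had an adjusted p-value under 0.05, the smallest adjusted p-value was 1, and 422 genes (2.98%) had an unadjusted p-value under 0.05, of which 199 were higher and 223 lower in the mock cells. DESeq2 called 0 genes as well, with 411 genes at an unadjusted p-value under 0.05. With the replicate number as a block, 0 genes were called in the model of 36 libraries and 38 in a model of the 6 M1-like libraries alone, which are described further on. The same test called 1639 genes higher and 1205 lower (8.50%) in M0_mock than in M0 (20.1% in all), and 238 higher and 15 lower in M2_mock than in M2 (1.79%). In the model of 36 libraries each gene has 1 estimate of spread, shared by all 12 groups. Its p-values, standard errors and intervals rest on that shared spread and not on the 6 M1-like libraries alone. The study's methods name biological replicates under RNA isolation and PCR. Since the labels do not say whether the replicates are separate animals or cultures, the spread may be technical.

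**Figure D1:**
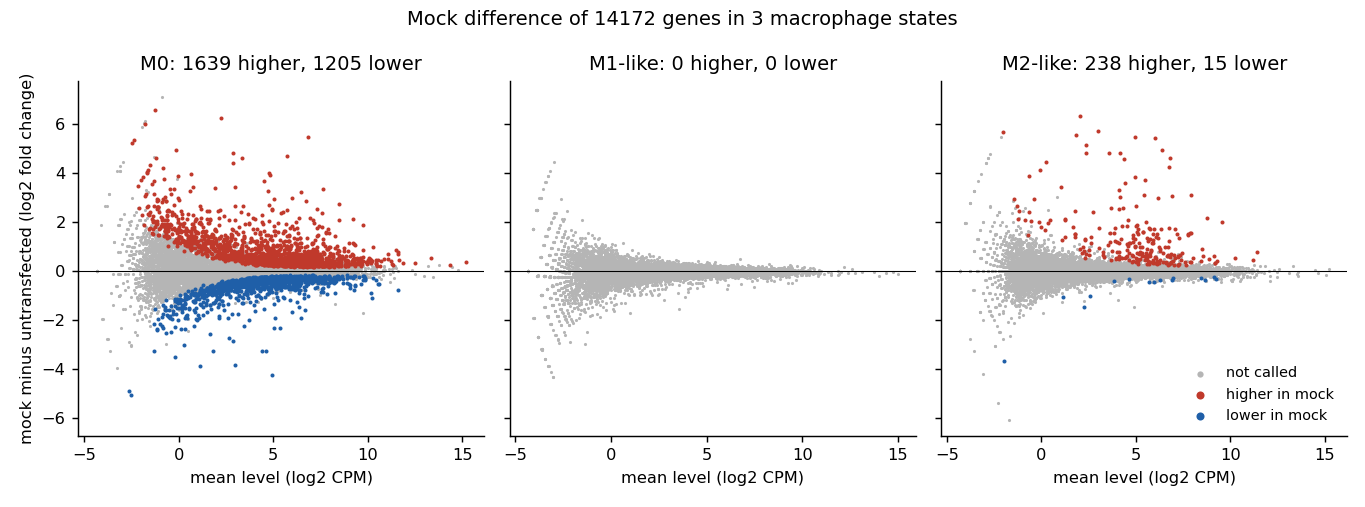
Log2 fold change of mock against untransfected macrophages (vertical) against the mean level in log2 CPM (horizontal) for all genes tested in each of the 3 macrophage states, with genes past an adjusted p-value of 0.05 in red (higher in mock) and blue (lower in mock). M0 macrophages show 1639 red and 1205 blue genes and M2-like macrophages 238 and 15, whereas the M1-like panel holds none.

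The size of change that the model of 36 libraries left room for was small for well expressed genes. Among 9136 genes with a mean log2 CPM of at least 3 over the 6 libraries, the 95% interval of the log2 fold change lay within ±0.5 for 8647 (94.6%) and within ±1 for 9092 (99.5%), and the median distance from the estimate to either bound was 0.19. Over all 14172 genes, 9269 (65.4%) lay within ±0.5 and 11697 (82.5%) within ±1. The middle 95% of the well expressed genes differed by -0.21 to 0.19 in M1-like macrophages, by -0.53 to 0.87 in M0 and by -0.25 to 0.49 in M2-like macrophages. The 8 protein-coding genes with the highest level in untransfected M1-like macrophages stayed within -0.20 and 0.07 on the log2 scale. Among them Gpnmb, a transmembrane glycoprotein of lysosome-rich macrophages, was at 35245, 29515 and 34724 CPM in M1 and at 33122, 27170.2 and 32654 CPM in M1_mock, and the lysosomal protease Ctsb was at 24272, 19749 and 21446 CPM against 22580.1, 18761 and 21336 CPM. Both groups overlapped for either gene.

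Interferon-stimulated genes were higher with mock in M0 and M2-like macrophages and were not called in M1-like macrophages. Promoters of 4 of them, chosen among the genes described next, are shown because these genes rose in both other states. Each line gives the 250 bases before the start of the gene in RefSeq (GRCm38.p6), 5′ to 3′ on the strand of the gene, with matches to the interferon-stimulated response element in capitals, searched as GAAA and GAAA with any 2 bases between them or, for the other strand, TTTC and TTTC with any 2 bases between them (overlapping matches are merged). The windows are chr19:34640639-34640888 (+) for Ifit1, chr19:34583279-34583528 (+) for Ifit3, chr4:156200819-156201068 (-) for Isg15 and chr12:26456453-26456702 (-) for Rsad2.
Ifit1: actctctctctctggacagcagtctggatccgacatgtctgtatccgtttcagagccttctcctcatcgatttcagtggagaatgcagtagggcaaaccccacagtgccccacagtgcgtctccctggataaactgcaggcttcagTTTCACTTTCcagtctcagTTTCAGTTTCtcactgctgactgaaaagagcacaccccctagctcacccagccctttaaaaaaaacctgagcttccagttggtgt
Ifit3: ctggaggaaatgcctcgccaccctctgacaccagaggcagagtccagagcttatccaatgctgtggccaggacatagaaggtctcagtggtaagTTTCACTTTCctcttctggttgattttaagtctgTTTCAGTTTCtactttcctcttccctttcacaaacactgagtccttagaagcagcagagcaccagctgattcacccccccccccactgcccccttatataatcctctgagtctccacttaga
Isg15: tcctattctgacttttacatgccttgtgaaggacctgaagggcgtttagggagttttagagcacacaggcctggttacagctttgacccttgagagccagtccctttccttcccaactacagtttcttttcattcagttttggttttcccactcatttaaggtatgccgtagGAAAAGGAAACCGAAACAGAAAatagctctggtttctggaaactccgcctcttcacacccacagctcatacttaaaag
Rsad2: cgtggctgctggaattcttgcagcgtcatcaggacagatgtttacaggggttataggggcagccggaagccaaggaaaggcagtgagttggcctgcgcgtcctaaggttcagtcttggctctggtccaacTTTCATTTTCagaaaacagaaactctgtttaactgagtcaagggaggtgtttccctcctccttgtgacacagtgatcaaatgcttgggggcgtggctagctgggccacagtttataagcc
The element occurred 2 times before Ifit1, 2 times before Ifit3, 3 times before Isg15 and once before Rsad2. Of the 30 genes on the list of interferon-stimulated effectors that had a promoter in the table, 14 (46.7%) held it, and so did 8 of 9 guanylate-binding proteins and immunity-related GTPases (88.9%), compared with 822 of 27025 genes in the table, each taken with 1 promoter (3.04%). Among genes called higher in M2_mock than in M2 the share was 44 of 182 (24.2%), among those called higher in M0_mock than in M0 it was 78 of 1230 (6.34%), and among the induced genes it was 63 of 517 (12.2%). A match of these letters is a description of the window and was not tested for binding.

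Ifit3, an antiviral protein with tetratricopeptide repeats, was at 27.2, 32.4 and 31.5 CPM in M1 and at 35.5, 35 and 36.6 CPM in M1_mock. The mock libraries lay above all untransfected ones, but the log2 fold change of 0.23 ± 0.36 (SE, 95% interval -0.52 to 0.99) did not pass the test. This SE comes from the model of 36 libraries, where each gene has 1 estimate of spread over all groups. It thus includes the wider spread of Ifit3 in M0 and M2-like libraries and does not measure the M1-like libraries alone. In M0 macrophages Ifit3 rose from 7.39, 2.23 and 2.32 CPM to 50.8, 90.5 and 166 CPM with mock transfection (log2 fold change 4.72 ± 0.46, adjusted p = 3.53e-08), and in M2-like macrophages from 2.22, 0.773 and 1.12 to 27.5, 75.4 and 78.8 CPM (5.48 ± 0.55, adjusted p = 1.31e-07). The mock difference in M1-like cells was lower than that in M0 by 4.49 ± 0.59 on the log2 scale (adjusted p = 1.47e-05) and lower than that in M2-like cells by 5.24 ± 0.68 (adjusted p = 3.11e-05). Each mock M0 library held more Ifit3 than any M1-like library.

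For Rsad2, the antiviral enzyme viperin, the M1-like libraries were the highest. It was at 389, 370.1 and 277 CPM in M1 and at 399, 379 and 346 CPM in M1_mock, where the groups overlapped (log2 fold change 0.12 ± 0.21, 95% interval -0.30 to 0.54). Mock M0 macrophages reached 114, 166 and 207 CPM from 22.9, 13.7 and 15.8 CPM, below every M1-like library. The mock difference in M1-like cells was lower than in M0 cells by 3.11 ± 0.31 (adjusted p = 2.33e-07).

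Irf7, the transcription factor that amplifies type I interferon production, was at 344, 387 and 357 CPM in M1 and at 348, 399 and 378 CPM in M1_mock (log2 fold change 0.05 ± 0.35). It was at 62.7, 23.6 and 20.4 CPM in M0 and at 149.5, 328 and 598 CPM in M0_mock, so that the mock M0 libraries spanned the M1-like level. Isg15, a ubiquitin-like modifier, was at 24.6, 32.1 and 30.7 CPM in M1 and at 35.2, 34.9 and 38.9 CPM in M1_mock (0.32 ± 0.35), and Ifit1 was at 23.6, 32.7 and 27.7 CPM against 31.4, 35.7 and 36.6 CPM (0.30 ± 0.29). The groups did not overlap for Isg15 and overlapped for Ifit1, and neither gene passed the test.

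**Figure D2:**
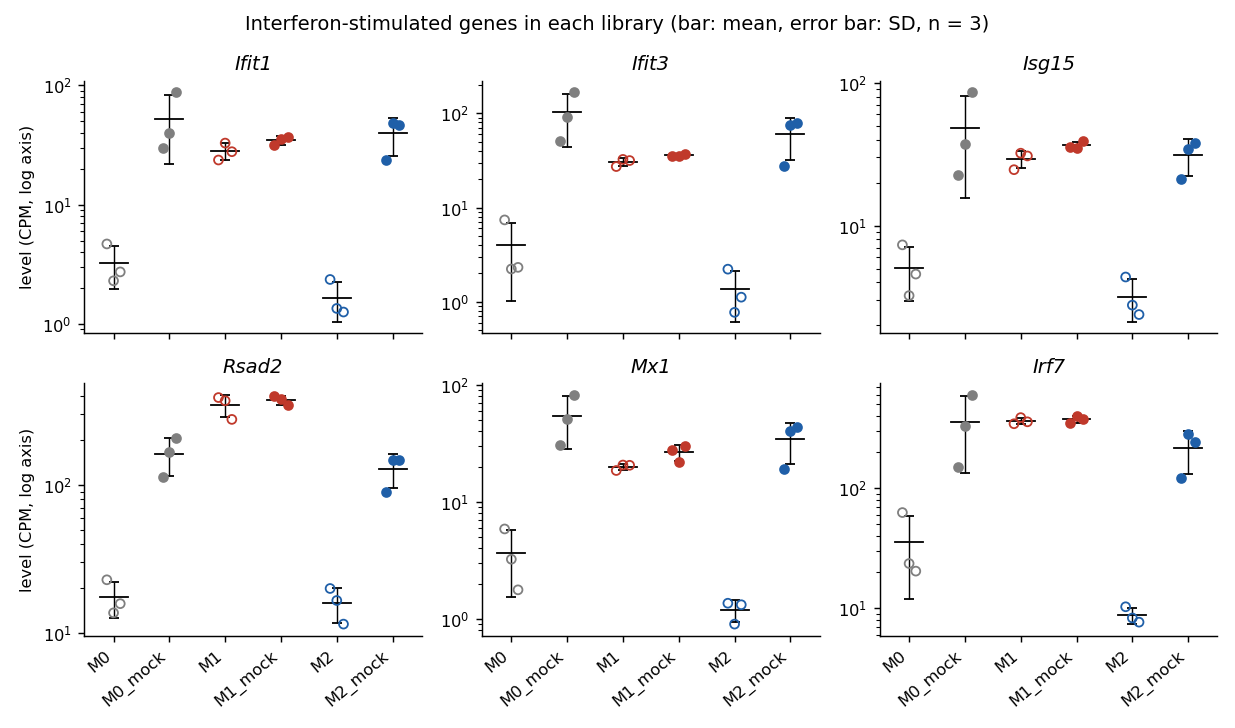
Level in CPM (log axis) of Ifit1, Ifit3, Isg15, Rsad2, Mx1 and Irf7 in each library without (open points) and with mock transfection (filled points), with the mean as a bar and the SD as an error bar (n = 3). Filled points lie far above open ones in M0 and M2-like macrophages, and the M1-like points lie at about the same level with and without mock, for example 27.2 to 32.4 CPM against 35 to 36.6 CPM for Ifit3.

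Over the list of interferon-stimulated effectors, the difference between the states was tested gene by gene. Of its 39 tested members, 0 passed the test in M1-like macrophages, 38 were higher in M0_mock than in M0 (11.6% of all genes were) and 37 were higher in M2_mock than in M2 (1.68%). Its median log2 fold change was 0.11 in M1-like, 2.36 in M0 and 2.54 in M2-like macrophages, against 0.00 for all genes in each state. Compared with M0, the mock difference of M1-like cells was lower for 38 of its 39 members (5.69% of all genes) and compared with M2-like macrophages it was lower for 35 (0.995%). The M1-like values were small but leaned upwards, with 33 members above and 6 below 0 (6836 above and 7311 below among all genes) and with 21 (53.8%) higher in all 3 same-numbered pairs, compared with 14.7% of all genes. The lowest was -0.09 and the highest 0.63, and the 95% interval lay within ±1 for 34 members and within ±0.5 for 17.

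Untransfected M1-like macrophages had a higher mean level than untransfected M0 macrophages for 39 of 39 effectors, but the mean of 23 of the 39 was higher in M0_mock than in M1. Without transfection 35 members were higher in M1-like than in M0 cells and 0 lower, whereas with mock in both states 10 were higher and 17 lower (30.1% and 29.9% of all genes were higher and lower). The median log2 fold change of the list was 1.84 without and -0.31 with mock. For all 727 LPS plus IFNγ induced genes, 610 were higher in M1-like than in M0 macrophages without and 508 with mock transfection, and the median was 1.41 and 0.88, respectively.

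The guanylate-binding proteins and immunity-related GTPases, which attack vacuoles of intracellular pathogens, had 0 of 15 members called and a median of 0.04, against 12 of 15 called higher in M0 (11.6% of all genes) and 10 of 15 in M2-like macrophages (1.68%). Gbp2 was at 1335, 2342 and 2111 CPM in M1 and at 1382, 2251 and 1897 CPM in M1_mock, with the lowest library carrying the number 1 in both groups. Irgm1 was at 424, 488 and 531 CPM against 449, 539 and 552 CPM (log2 fold change 0.09 ± 0.15). In M1-like against M0 macrophages 15 of 15 members were higher without mock (28.8% of all genes), and 15 of 15 with mock in both states (30.1%).

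Of 16 nucleic acid sensors and adaptors, 0 were called in M1-like cells, while 10 were higher with mock in M0 (11.6% of all genes) and 7 in M2-like cells (1.68%). Ddx58, the RNA sensor RIG-I, was at 40.2, 38.4 and 37.3 CPM against 44.1, 42.9 and 42.6 CPM (0.16 ± 0.15), so that its groups did not overlap, and Cgas, the sensor of cytosolic DNA, was at 11.4, 10.6 and 10.2 CPM against 11.9, 9.82 and 10.3 CPM. Of 21 genes of MHC class I presentation, 0 were called in M1-like macrophages and 19 were higher with mock in M0 macrophages, again against 11.6% of all genes. B2m, its light chain, was at 7472, 6284 and 7209.7 CPM in M1 and at 6577, 6392 and 7114 CPM in M1_mock. The interferon genes themselves had too few reads for a comparison, with 1 read of Ifnb1 in the 3 M1 libraries together and 2 in the 3 M1_mock libraries.

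**Figure D3:**
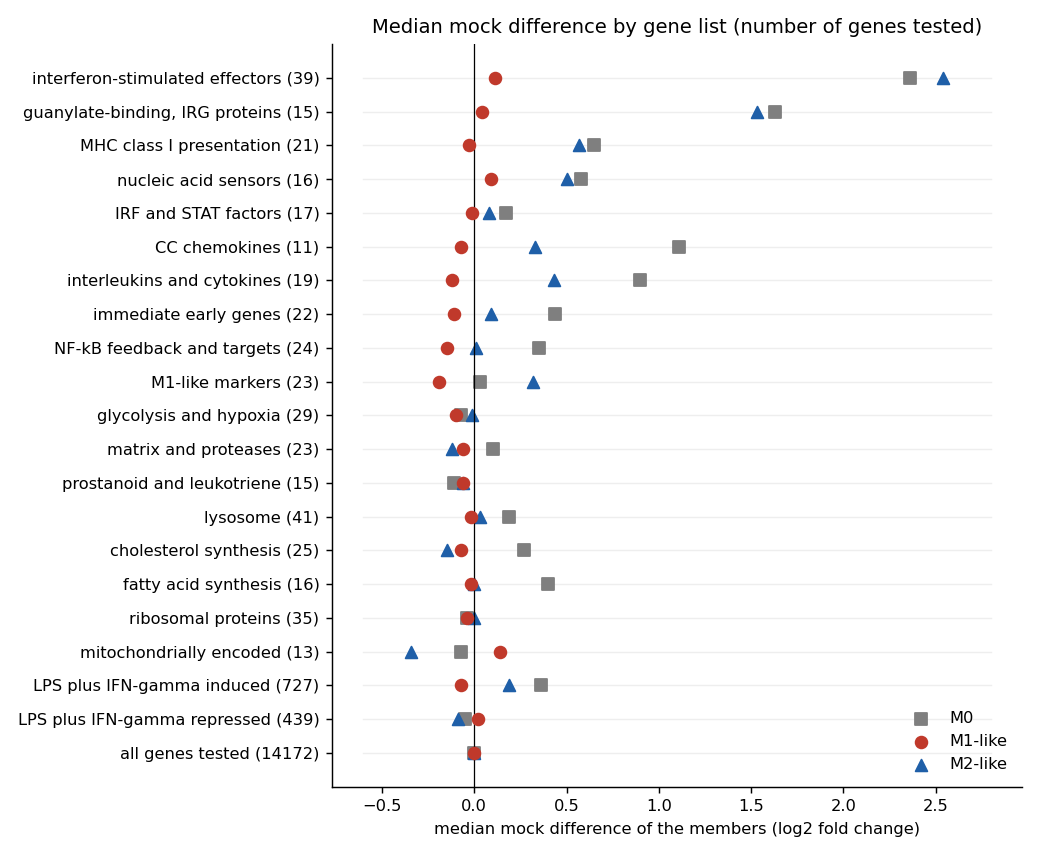
Median log2 fold change of mock against untransfected macrophages (horizontal) for 20 gene lists and for all genes tested (rows, with the number of genes tested), in M0 (squares), M1-like (circles) and M2-like macrophages (triangles). The interferon-stimulated effectors reach 2.36 in M0 and 2.54 in M2-like cells and 0.11 in M1-like cells, and the M1-like circles of all lists lie between -0.19 and 0.14.

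Counted over all genes, the mock difference of M1-like cells was below that of M0 for 806 genes and above it for 449 (3.17%, and 8.86% in all), and below that of M2-like cells for 141 and above it for 5 (0.0353%, and 1.03% in all). Single genes were ranked among called protein-coding genes with a mean log2 CPM of at least 3 over the 6 M1-like libraries. Their M0 and M0_mock groups could not overlap, and genes with few reads in M1-like cells were thus left out. Within these limits the largest differences from M0, besides genes above, were Ifi44 (-5.96), Ifit2 (-5.27), Ifi213 (-4.32) and Ifi206 (-4.30). Slfn1 (-3.55), Mx1 (-3.52) and Trim30c (-3.48) followed, and all of these are interferon-inducible. Marco, a scavenger receptor, went the other way, since it fell from a mean of 58.1 to 3.08 CPM in M0 macrophages with mock transfection and had a log2 fold change of -0.50 ± 0.53 in M1-like cells (difference 3.73 ± 0.83, adjusted p = 0.00404). The 5 genes with a higher mock difference in M1-like than in M2-like cells were Cd48, 2810403D21Rik, Rnf128, Mrgpre and Tfrc (transferrin receptor), named after their values were seen, and Tfrc differed by 0.11 in M1-like cells.

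Of the 1639 genes higher in M0_mock than in M0, 0 were called in M1-like macrophages, with 750 above and 885 below 0 and a median of -0.01, and the 1205 genes lower in M0_mock had a median of 0.00. The 238 genes higher in M2_mock than in M2 had a median of 0.04 in M1-like cells, and 76 of them (31.9%) were higher in all 3 pairs, against 14.7% of all genes. Alox5, the lipoxygenase of leukotriene synthesis, was at 2.5, 2.28 and 2.71 CPM in M1 and at 2.77, 2.46 and 1.97 CPM in M1_mock, whereas it fell by 3.28 on the log2 scale in M0 cells (adjusted p = 5.7e-06). Dusp1, a phosphatase of MAP kinases, was at 314, 226 and 248 CPM against 308, 225 and 252 CPM (-0.01 ± 0.15), whereas it rose by 1.78 in M0 cells (adjusted p = 2.76e-09). Of 25 cholesterol synthesis genes 10 were called higher in M0 (11.6% of all genes) and 0 in M1-like cells, and the same held for 10 of 16 and 0 of 16 genes of fatty acid synthesis.

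Same-numbered M1 and M1_mock libraries resembled each other more than libraries of 1 group did. The deviations of the libraries from their group means correlated with r = 0.63, 0.58 and 0.51 between the same numbers (across 10223 genes, which are not independent replicates) and with -0.46 to -0.06 between different numbers. Because the 3 deviations of a group add up to 0, positive values at the same numbers bring negative ones elsewhere, which are no separate support. The chi-square per gene was 6.30, 3.11 and 4.51 for the 3 same-numbered pairs and 8.83 to 26.4 for every other pair of the 6 libraries. The comparison was also fitted within pairs, with the replicate number as a block and only the 6 M1-like libraries, an alternative that was added after the data were seen.

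**Figure D4:**
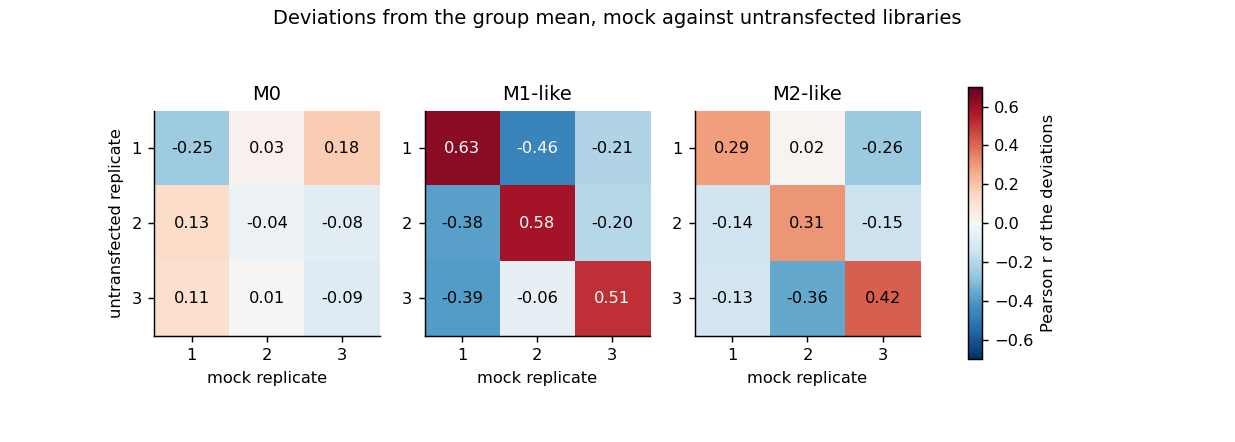
Pearson correlation across 10223 genes between the deviation of an untransfected library (rows) and of a mock library (columns) from its group mean, for M0, M1-like and M2-like macrophages. The diagonal, which holds the same replicate numbers, is at 0.63, 0.58 and 0.51 in M1-like, at 0.29, 0.31 and 0.42 in M2-like and at -0.25, -0.04 and -0.09 in M0 macrophages.

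Within pairs, 33 genes were lower (0.258% of 12791 tested) and 5 higher (0.0391%) in mock than in untransfected M1-like macrophages, while the same 6 libraries gave 0 calls without the block. The fold changes were small, with a median of -0.43 for the 33 lower genes and a range from -1.65 to -0.21. The count was unstable when a pair was left out. Without pair 1 it was 39 higher and 88 lower, without pair 2 it was 63 and 151, and without pair 3 it was 2 and 13. Of the 38 genes 33, 36 and 15 remained called, respectively. The number of calls thus rose with fewer libraries in 2 of these fits. The paired fits take the spread of a gene from these few libraries alone, so that their adjusted p-values are uncertain and may be too small. With all 36 libraries in the model and a block within the M1-like pairs, 0 genes were called and the smallest adjusted p-value was 0.125. The genes below were named after these values were seen.

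Within pairs, 2 of 15 prostanoid and leukotriene genes and 4 of 23 M1-like markers were lower and 0 higher (0.258% and 0.0391% of all genes). Ptgs2, the inducible cyclooxygenase, went from 87.1, 68.1 and 57.7 CPM in M1 to 66.7, 53.7 and 44.3 CPM in M1_mock, a log2 fold change of -0.37 ± 0.05 within pairs (adjusted p = 0.00324) and of -0.37 ± 0.23 without pairing. Each mock library lay below its own partner by 0.34 to 0.38, although the groups overlapped. Ptges, which makes prostaglandin E2 from its product, went from 20.1, 27.3 and 16.6 to 11.3, 18.7 and 9.69 CPM (-0.70 ± 0.09, adjusted p = 0.00140). Nos2 (values above) fell by 0.50 ± 0.08 (adjusted p = 0.0424), with all mock below all untransfected libraries. Sod2, the mitochondrial superoxide dismutase, went from 234, 376 and 369 to 187, 311 and 244 CPM (-0.40 ± 0.06, adjusted p = 0.00454).

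Fn1 (chr1:71585520-71653200, GRCm38), which encodes fibronectin, had the smallest adjusted p-value of the paired fit, and 4 of 23 matrix and protease genes were lower (0.258% of all genes). It was at 231, 186 and 233 CPM in M1 and at 141, 135 and 144 CPM in M1_mock, so that the groups did not overlap (log2 fold change -0.63 ± 0.05 within pairs, adjusted p = 2.02e-05, and -0.63 ± 0.23 without pairing). Serpinb2, an inhibitor of plasminogen activators, went from 24.8, 34.5 and 23.3 to 18.6, 17.2 and 14.9 CPM (-0.70, adjusted p = 0.00331). Timp1, an inhibitor of matrix metalloproteinases, went from 9.52, 4.62 and 8.20 to 3.75, 3.44 and 4.53 CPM, and Inhba, a subunit of activin, from 164, 115 and 107 to 119, 79.1 and 68.0 CPM. The summed level of the 6 tested fibroblast and mesothelial markers was lower with mock in 2 of the 3 pairs. It went from 83.9 to 19.4 CPM in pair 1, from 27.9 to 33.7 CPM in pair 2 and from 78.7 to 38.6 CPM in pair 3. The defining markers were Col1a1 at 23.2, 8.77 and 25.9 CPM in M1 and 6.14, 10.8 and 10.9 CPM in M1_mock and Upk3b at 0 to 0.244 CPM. In pair 2, where this sum was not lower, Fn1 was lower by 0.46, Timp1 by 0.41 and Inhba by 0.54 on the log2 scale. In pairs 1 and 3, where the sum was lower, Fn1 and Timp1 fell by more than in pair 2. Inhba fell by more in pair 3 and by less in pair 1. The part of such cells in these values was not tested. In bulk samples, fewer cells of a type and less RNA per cell cannot be told apart.

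C3, the central complement component, went from 801, 663 and 994 CPM to 592, 500.4 and 663 CPM (-0.48 ± 0.05, adjusted p = 8.48e-05), and the protease gene C1s1 was lower as well. Clec4e, the receptor Mincle, went from 437, 424 and 403 to 354, 308 and 283 CPM (-0.43, adjusted p = 3.18e-04), Cd14, the co-receptor of LPS, from 309.9, 313 and 285 to 287, 237 and 212 CPM (-0.31, adjusted p = 0.0263), and Adgre1, which encodes F4/80, from 321, 287 and 271 to 265, 236 and 222 CPM (-0.28, adjusted p = 0.00480). Icam1, an adhesion molecule for leukocytes, was at 147, 148 and 161 CPM against 114, 134 and 126 CPM (-0.29, adjusted p = 0.0163), and the chemokine gene Cxcl16 was at 292, 233 and 291 CPM against 239, 201 and 233 CPM (-0.28, adjusted p = 0.00841). The groups did not overlap for Clec4e, Adgre1 and Icam1.

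Further lower genes were Acsl1, Bst1, Ccrl2, Col5a2, Ecm1, Gm26917, Gpi1, Junb, Malt1, Marco, Phlda3, Psrc1, Rpl31-ps8, Rps2-ps10, Tnip3, Ubl5 and Zswim4, and 16 of all 33 had groups that did not overlap (3.02% of all genes did so in this direction). The 5 higher genes were Cxcr4, Adgre5, mt-Nd3, mt-Nd4l and Gm10222, and the groups did not overlap for 2 of them (2.87% of all genes). These overlap counts use the same values that selected the genes and therefore add no separate support. DESeq2 with the same pairing called 1 gene higher (0.00782% of 12791) and 21 lower (0.164%). It gave no adjusted p-value for 11655 of these 12791 genes, among them 24 of the 38 genes called within pairs by edgeR. Cxcr4, a chemokine receptor, went from 92.7, 86.3 and 75.8 to 116, 98.6 and 98.8 CPM (0.30 ± 0.05, adjusted p = 0.0135). The mitochondrial gene mt-Nd3 went from 53.1, 97.2 and 119 to 84.0, 125 and 167 CPM (0.50, adjusted p = 2.55e-04), but 11 of the 13 mitochondrially encoded genes were not called within pairs, and the values of short, overlapping mitochondrial genes, of Gm10222 and of the Rpl and Rps pseudogenes are uncertain because their reads can fit more than 1 locus.

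**Figure D5:**
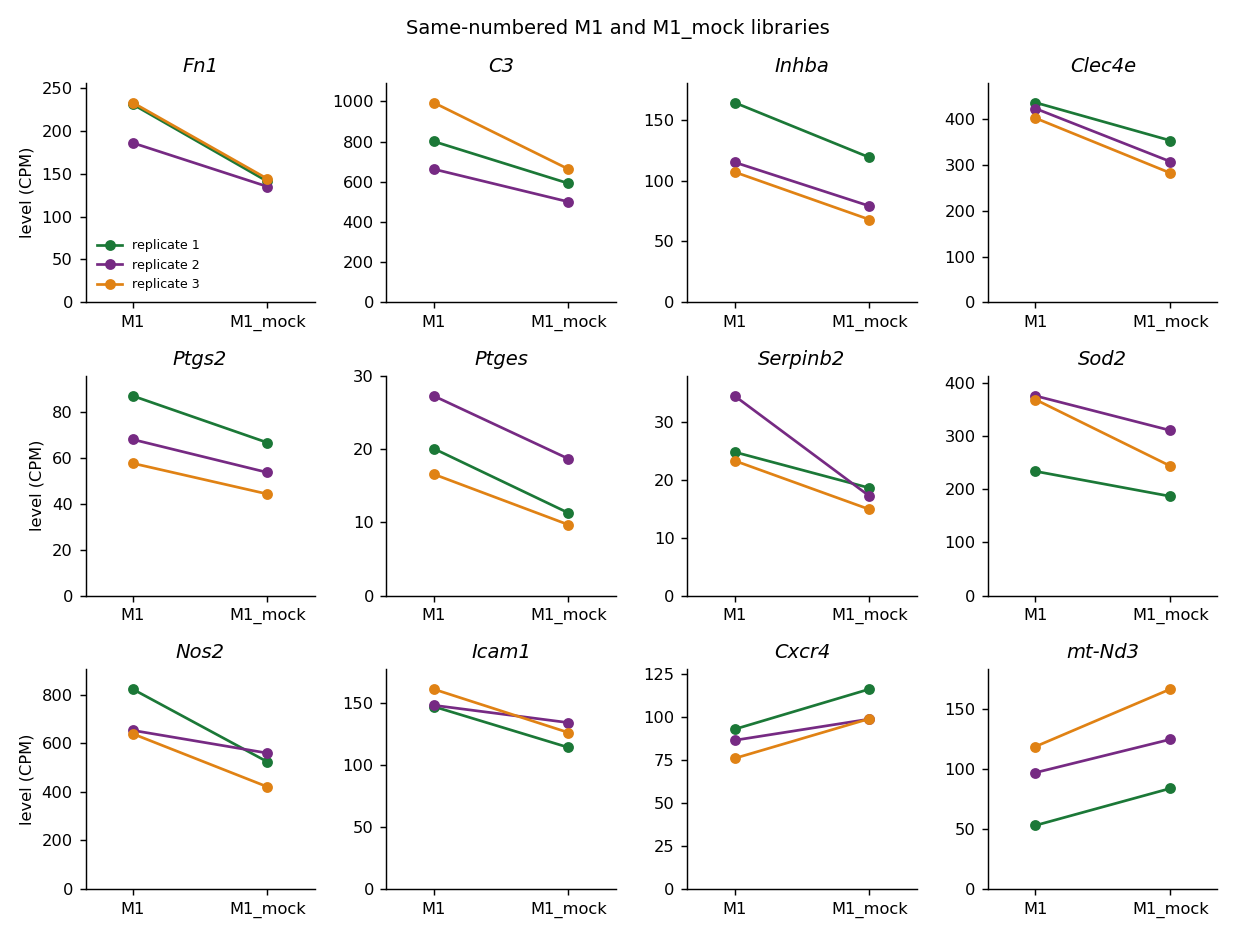
Level in CPM (vertical, from 0) of 12 genes called within pairs, in M1 and M1_mock libraries joined by replicate number (colours). Each line falls from M1 to M1_mock for the first 10 genes, such as Fn1 from 231, 186 and 233 to 141, 135 and 144 CPM, and every line rises for Cxcr4 and mt-Nd3.

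Of the 33 genes lower within pairs, 22 were on the list induced by LPS plus IFNγ in the polarization experiment, which made 22 of 716 induced genes (3.07%) against 1 of 431 repressed genes (0.232%) and 10 of 11644 other genes (0.0859%). None of the induced genes was called higher, while 2 repressed genes, Cxcr4 and Adgre5, were. Counting called and uncalled genes together, 236 of the 727 induced genes (32.5%) were lower in all 3 pairs and 93 (12.8%) higher, against 15.7% and 14.7% of all genes, and among the 439 repressed genes 60 (13.7%) were lower and 92 (21%) higher. The median log2 fold change was nevertheless close to 0, at -0.07 for induced and 0.02 for repressed genes, and 0 members of either list were called in the model of all libraries.

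The 10 most strongly induced genes differed by -0.49 to 0.07 on the log2 scale, with Nos2 lowest. Cxcl9, a chemokine for T cells, was at 77.0, 49.5 and 65.5 CPM in M1 and at 58.6, 50.6 and 48.8 CPM in M1_mock (-0.28 ± 0.20), and the GTPase gene Iigp1 was at 472, 676 and 673 CPM against 504, 674 and 627 CPM (-0.01 ± 0.21). Acod1, which makes itaconate, was at 409, 497 and 496 CPM against 411, 481 and 438 CPM (-0.08 ± 0.35). Among 23 tested M1-like markers, 22 lay below 0 with a median of -0.19, and 10 (43.5%) were lower in all 3 pairs. For this and the following lists the background is 7311 of 14172 genes below 0 and 15.7% lower in all 3 pairs.

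Of 24 NF-kB feedback and target genes, 0 were called with all libraries and 2 (Icam1 and Tnip3) within pairs, 19 lay below 0 and 10 (41.7%) were lower in all 3 pairs. Tnfaip3, a feedback inhibitor, was at 88.4, 84.5 and 85.7 CPM in M1 and at 76.6, 77.7 and 67.6 CPM in M1_mock, where the groups did not overlap (-0.22 ± 0.09), and Nfkbia was at 22.5, 44.8 and 33.0 CPM against 21.2, 38.1 and 24 CPM (-0.26 ± 0.23). Rela, a subunit of the factor itself, was at 102, 120.4 and 128 CPM against 101, 126 and 124 CPM (0.00 ± 0.09). Tnf was at 27.0, 37.8 and 34.7 CPM against 23.3, 38.3 and 31.9 CPM (-0.09 ± 0.18), although it rose by 1.37 in M0 macrophages with mock transfection (adjusted p = 2.51e-05).

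Of 9 tested CXC chemokines 9 lay below 0, with a median of -0.28 and 1 call within pairs (Cxcl16), while 6 of 11 CC chemokines did, with a median of -0.07. Ccl2, which attracts monocytes, was at 53.9, 73.7 and 87.1 CPM in M1 and at 58.3, 67.6 and 78.1 CPM in M1_mock, and Ccl5 was at 577, 265 and 388 CPM against 467, 353 and 505 CPM. The groups overlapped for both genes. Il1b was at 0.977, 4.42 and 0.568 CPM against 0.326, 1.52 and 0.464 CPM, with each mock library below its partner (-1.31 ± 0.60) and no call in either fit. Immediate early genes, which respond to handling within minutes, had 0 of 22 members called with all libraries and 1 (Junb) within pairs. Fos was at 146, 53.3 and 74.5 CPM against 115, 52.1 and 69.9 CPM, Egr1 at 4.64, 9.57 and 5.93 CPM against 3.70, 6.14 and 4.99 CPM, and Atf3 at 425, 349 and 383 CPM against 418, 361 and 386 CPM.

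In glycolysis and the HIF pathway, 26 of 29 genes lay below 0 with a median of -0.10, 12 (41.4%) were lower in all 3 pairs, and Gpi1, the second enzyme of glycolysis, was called within pairs (255, 227 and 259.7 CPM in M1, 212, 192 and 222 CPM in M1_mock, log2 fold change -0.25, adjusted p = 0.0147). Hk2 was at 331, 303 and 284 CPM against 286, 277 and 245 CPM (-0.18 ± 0.07), and Ldha at 248, 275 and 297 CPM against 252, 264 and 279 CPM (-0.04 ± 0.08). The citrate cycle had a median of 0.00 over 23 genes, lysosomal enzymes and V-ATPase subunits of -0.02 over 41, cholesterol synthesis of -0.07 over 25, fatty acid synthesis of -0.02 over 16, and ribosomal proteins of -0.04 over 35, with 0 calls in either fit. Of 22 p53 targets and apoptosis genes, 12 (54.5%) were lower in all 3 pairs, 1 was called within pairs and the median was -0.09. Mitochondrially encoded genes lay above 0 for 12 of 13, with a median of 0.14, and 2 were called.

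The machinery that a later siRNA would use, and the targets of the siRNA pools of the study, had 0 calls in either fit. Of 15 genes of RNA interference 0 were called, with a median of 0.01 and a range from -0.08 to 0.18. Stat6 was at 243, 313 and 280.4 CPM in M1 and at 277, 297 and 282 CPM in M1_mock (0.03 ± 0.09), E2f1 at 32.1, 27.8 and 29.9 CPM against 32.5, 28.7 and 25 CPM (-0.06 ± 0.10), Pparg at 21.5, 19.9 and 21.1 CPM against 23.1, 19.4 and 22.9 CPM (0.06 ± 0.09), and Myc at 3.24, 1.47 and 2.97 CPM against 3.37, 2.8 and 4.35 CPM (0.43 ± 0.22). Markers of alternative activation had 0 of 16 members called, and Arg1 varied between 29.1 and 136 CPM over the 6 libraries with overlapping groups.

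The macrophage list summed to 6955 to 8096 CPM in M1 and to 6448 to 7490.1 CPM in M1_mock. Of its 8 members, 7 lay below 0 with a median log2 fold change of -0.08. In all 3 pairs 5 (62.5%) were lower, against 15.7% of all genes. Within pairs 2 (Cd14 and Adgre1) were called lower (0.258% of all genes), and 0 were called with all libraries. The 6 B cell markers summed to 4.64 to 19.5 CPM and 5.87 to 21.4 CPM, with the highest value in replicate 2 of both groups and nearly all of it from Ighm, and the defining marker Cd79a at 0.305 to 1.42 CPM. The 3 tested neutrophil markers summed to 20.3 to 28.2 CPM and 23.7 to 27.5 CPM, nearly all of it from S100a8 and Mmp8. The defining marker S100a8 had 602 counts in the M1 and 578 in the M1_mock libraries together, and Mmp8 had 602 and 833. S100a9 and Ly6g had 0 counts in all 6 libraries. The 2 tested T and NK cell markers of 7 summed to 0 to 0.189 CPM and 0 to 0.163 CPM, and Cd3e, not tested, had 0 counts. The tested eosinophil, mast cell and dendritic cell markers summed to at most 6.35 CPM in every library. Markers that did not pass the filter are not in these sums, such as Klrb1c (2 counts in M1 and 4 in M1_mock) and Xcr1 (1 and 10).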

How the data were processed

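Gene expression was measured by RNA sequencing. Per the labels and the study's methods, reads were trimmed with Trimmomatic, aligned to GRCm38 (mm10) with TopHat2 and counted per gene with featureCounts, and the authors deposited raw read counts for each library. Versions, annotation release, strand setting and treatment of multiply aligned reads are not given in the sources used here. The files hold 39179 gene identifiers, of which 37607 were matched to GENCODE M21 symbols.

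The counts of the 36 paired-end libraries (13421854 to 19704195 counted reads) were analysed with edgeR 4.0.16 in R 4.3.3 (limma 3.58.1): TMM scaling, filterByExpr with a minimum count of 10, robust quasi-likelihood fits with 1 coefficient per group, and Benjamini-Hochberg adjustment over all 14172 genes tested with a threshold of 0.05. Standard errors were derived from the F statistic. DESeq2 1.42.0, RLE scaling, other filters, only the compared groups, a replicate block, a log2 fold change of at least 1 and leaving out each replicate were alternatives. The 18 single-end libraries of the polarization experiment served only to define the induced and repressed lists, with technical replicates of a mouse summed.

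Same-numbered M1 and M1_mock libraries deviated together (r = 0.63, 0.58 and 0.51, each over 0.1), which is where the pairing comes from, since the labels give only the number. Genes were named by rule: the 15 largest called changes per direction, the defining and 4 other members of each of 53 gene lists, the 10 largest differences from M0 and M2-like macrophages, the 8 highest genes and the 10 most changed members of the polarization lists. Genes called within pairs were named after their values were seen. The members and lists were chosen with earlier results of these data known. Some genes are not reported here.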

Additional observations from a re-analysis of the deposited data

Results flagged for a closer look

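The mock difference in M1-like macrophages differed from that in M0 macrophages, by an interaction contrast in edgeR's quasi-likelihood test, for 449 genes that were higher and 806 that were lower. Among the largest, the log2 difference was -5.96 for Ifi44, -5.27 for Ifit2, -4.49 for Ifit3, -4.32 for Ifi213, -4.30 for Ifi206, -3.72 for Ifit1, -3.55 for Slfn1, -3.52 for Mx1 and -3.48 for Trim30c, and it was 3.73 for Marco. Against M2-like macrophages 5 genes were higher and 141 lower, with log2 differences of -5.83 for Il12rb1, -5.43 for Ifi213, -5.29 for Ifi44, -5.24 for Ifit2, -5.24 for Ifit3, -5.05 for Ifi206, -4.87 for Rtp4, -4.71 for Slfn1, -4.58 for Irf7 and -4.50 for Trim30c. The genes listed met the level and overlap conditions given above for named genes, so larger differences of other genes are possible. Groups of 3 libraries were too small to look for single libraries that stand apart.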

How the results depend on the processing

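Between mock and untransfected M1-like macrophages 0 genes were called under DESeq2, RLE scaling, both other filters, only the compared groups, a replicate block over 36 libraries and without each replicate in turn (0 to 0). Alternatives added after the data were seen gave other counts. With the replicate block and only the 6 libraries, 5 genes were higher and 33 lower (22 induced genes lower, and 2 repressed genes higher and 1 lower). DESeq2 with that block called 1 higher and 21 lower (1 induced gene higher and 12 lower, 1 repressed gene lower), gave no adjusted p for 11655 genes, and called 13 of the 14 genes of the first set for which it gave one. Leaving out pair 1, 2 or 3 gave 39, 63 and 2 higher and 88, 151 and 13 lower genes (induced: 3, 20 and 0 higher, 55, 46 and 10 lower; repressed: 6, 10 and 0 higher, 2, 7 and 1 lower). The cause was not tested. The difference from M0 was higher for 235 and lower for 505 genes with only the compared groups, and for 96 and 293 with a log2 fold change of at least 1, and without single replicates it ranged from 306 to 452 and from 614 to 869. The number of genes higher than in M2-like macrophages was 2 with RLE, 0 with only the compared groups, 15 with the replicate block, 19 with the block within M1-like and M2-like pairs, 1 with a log2 fold change of at least 1 (89 lower), and 1 to 9 without single replicates (106 to 162 lower). Intervals were wide for genes with few reads.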
